A study of Rattus norvegicus with 30 samples.

Results

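Genes of the BMP, activin and myostatin signals were followed through the healing of rat plantaris tendons, and 10 of the 10 names on the list were found among the 13124 genes of the count table. The rule that chose them names the genes and uses no measured value, but it was made with earlier results of these data known. They comprised 6 ligand and processing genes (Bmp1, Bmp2, Bmp4, Bmp6, Mstn and Inhba) and 4 genes of secreted antagonists (Fst, Grem1, Chrdl1 and Fstl3). RNA sequencing counts were available for 30 tendons of 3-month-old male Sprague Dawley rats. The 3 control tendons came from rats that had no surgery and received no compound. In all other rats the plantaris tendon was cut and sutured, and GSK2894631A, an inhibitor of hematopoietic prostaglandin D synthase (HPGDS), was given by oral gavage 2 times daily at 0, 2 or 6 mg/kg, where 0 mg/kg was the vehicle alone. Tendons were taken 7 days (7D) after repair in 5, 4 and 3 rats at 0, 2 and 6 mg/kg, and 21 days (21D) after repair in 5 rats at each dose. The controls had neither the operation nor the compound, and the sources do not say whether they were gavaged, so the effects of injury, of repair and of vehicle cannot be told apart in a comparison with them.

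Bone morphogenetic proteins (BMPs), activins and myostatin are secreted ligands of the TGF-β superfamily, which bind pairs of serine/threonine kinase receptors and pass their signal on through SMAD proteins. BMPs act mainly through SMAD1, SMAD5 and SMAD9 and are known for bone and cartilage formation and for the attachment of tendon to bone, whereas activins and myostatin act mainly through SMAD2 and SMAD3 and are known in wound repair and as brakes on muscle growth. Secreted antagonists such as follistatin, gremlin and the chordin family trap the ligands before they reach a receptor.

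Expression was measured as CPM (counts scaled to a total of 1e+06 per tendon) of the reads on listed genes, after scaling of the library sizes by the TMM method of edgeR. Between 12405741 and 49909374 counts were available per tendon. The limit that a count of 0 allows, 3 counts, corresponded to 0.0601 to 0.242 CPM on total counts before TMM scaling. This limit covers counting error only. A gene was called changed when its p from the quasi-likelihood test of edgeR, adjusted by Benjamini and Hochberg over all genes tested, was under 0.05. Tested were the 12558 genes whose mean was at least 3 CPM, on total counts before TMM scaling, in at least 1 group. All 10 genes passed that filter, Grem1 only through the groups at 21D with 0 and with 6 mg/kg. Each tendon came from a separate rat, and p-values measure the spread between these tendons.

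The tendons differed in how much skeletal muscle RNA they held, and this was measured before the genes were compared. The 30 of 35 listed skeletal muscle markers found in the table took 20.35% to 28.31% of the counts in control tendons, and none of them was at 0 in any tendon. At 7D the share had fallen to between 0.183% and 1.34% without the inhibitor, to between 0.00946% and 0.0114% with 2 mg/kg and to between 0.0101% and 0.0125% with 6 mg/kg. At 21D the tendons ranged from 0.0701% to 8.31% with 0 mg/kg, from 1.31% to 3.42% with 2 mg/kg and from 0.350% to 10.15% with 6 mg/kg. The most abundant muscle gene was Myh4 in 2 control tendons and Acta1 in the other, at 72820 CPM there. The shares of control and repaired tendons did not overlap, so muscle content moved with every comparison against control. Fewer cells of a type and less RNA per cell cannot be told apart in such bulk samples.

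Markers of tendon cells were present throughout, with 9 of 10 in the table and none at 0 in any tendon. Their summed level was 22380 ± 14530 CPM (SD, n = 3) in control, 42430 ± 11000 CPM (n = 5) at 7D 0 mg/kg and 29230 ± 8237 CPM (n = 5) at 21D 0 mg/kg, with Col1a1, a chain of type I collagen, the most abundant in each. Col1a1 made up most of that sum, with means of 18440 CPM in control and 40540 CPM at 7D 0 mg/kg. Of the 9 markers 6 were called at 7D 0 mg/kg, where 71.4% of all genes were called. Among them Mkx reached the filter's mean of 3 CPM in control only. Col1a1 was higher (log2 fold change 1.14), and Tnmd (-1.43), Mkx (-4.10), Fmod (-1.64), Chad (-5.74) and Kera (-3.08) were lower, with a median of -1.43 over the 9. Macrophage markers, also 9 of 10 in the table, summed to 1344 ± 811.7 CPM in control, 3950 ± 1168 CPM at 7D 0 mg/kg and 3985 ± 2360 CPM at 21D 0 mg/kg. The part of these cell types in the results below was not tested.

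Because members of the list moved in opposite directions after repair, the 250 bases before the start site of 4 of them are shown, for a pair that was higher at 21D (Inhba and Grem1) and a pair that was lower at 7D 0 and 6 mg/kg (Bmp4 and Bmp6). The sequences are those of RefSeq for the GRCr8 assembly, and the set of promoters used here had entries for 6 of the 10 genes. All 4 shown lie on the minus strand, at chr17:53804509-53804758 for Inhba, chr3:120978320-120978569 for Grem1, chr15:22101934-22102183 for Bmp4 and chr17:26675262-26675511 for Bmp6. Capitals mark matches on either strand to 4 motifs. The TATA box was searched as TATAAA, the AP-1 site as TGANTCA, the SMAD box as CAGAC and the GC-rich SMAD element as GGCGCC, which reads alike on both strands.
Inhba: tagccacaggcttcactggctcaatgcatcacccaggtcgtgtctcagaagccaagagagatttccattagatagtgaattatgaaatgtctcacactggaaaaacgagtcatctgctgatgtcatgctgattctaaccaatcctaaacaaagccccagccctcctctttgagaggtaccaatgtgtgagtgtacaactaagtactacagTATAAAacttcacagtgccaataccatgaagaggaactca
Grem1: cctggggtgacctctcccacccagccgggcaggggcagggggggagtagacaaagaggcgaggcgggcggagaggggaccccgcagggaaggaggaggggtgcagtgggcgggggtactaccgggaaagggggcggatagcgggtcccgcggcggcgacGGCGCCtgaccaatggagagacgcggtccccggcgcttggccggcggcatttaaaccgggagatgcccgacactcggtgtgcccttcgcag
Bmp4: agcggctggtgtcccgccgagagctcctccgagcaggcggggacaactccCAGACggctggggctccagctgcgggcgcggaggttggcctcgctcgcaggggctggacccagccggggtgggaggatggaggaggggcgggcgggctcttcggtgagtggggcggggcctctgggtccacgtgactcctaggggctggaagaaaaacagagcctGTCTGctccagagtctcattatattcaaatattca
Bmp6: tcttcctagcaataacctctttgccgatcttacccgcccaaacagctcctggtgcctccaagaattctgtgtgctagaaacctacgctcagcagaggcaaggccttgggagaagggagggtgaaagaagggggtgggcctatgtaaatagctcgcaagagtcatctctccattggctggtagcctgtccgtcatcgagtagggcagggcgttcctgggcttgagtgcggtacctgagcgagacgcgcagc
The Inhba sequence held the TATA box letters 40 to 35 bases before the start, the Grem1 sequence held the GC-rich element 91 to 86 bases before it, and the Bmp4 sequence held the SMAD box 200 to 196 bases before it and, on the other strand, 35 to 31 bases before it. None of these letters was found in the Bmp6 window. Over 33469 rat promoters of the same length, the TATA box letters occurred in 12.9%, the AP-1 site in 6.34%, the SMAD box in 42.9% and the GC-rich element in 8.69%. The pairs had no match in common, and a match describes letters in a window, not a bound site. GC content was 43.6% for Inhba, 72.0% for Grem1, 66.4% for Bmp4 and 56.4% for Bmp6.

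The first question was how the ligand and processing genes differed between control and repaired tendons. At 7D 0 mg/kg 6 of the 10 genes were called, Bmp1 higher and Bmp2, Bmp4, Bmp6, Mstn and Fst lower, where 71.4% of all genes tested were called in that comparison (35.8% higher and 35.6% lower). At 21D 0 mg/kg 6 were called again, with Bmp1, Inhba and Grem1 higher and Bmp6, Mstn and Fst lower, where 65.9% of all genes were called (32.2% higher and 33.7% lower). With changes this widespread, a share of the list near these percentages is no result about the list. The median log2 fold change of the 10 genes was -0.64 at 7D and -0.20 at 21D, beside 0.05 and 0.03 over all genes. Scaling by library size alone, without TMM, moved the median of all genes to 0.64 and 0.59. Among the called genes only, the share that were higher moved from 50.1% to 75.6% at 7D and from 48.9% to 77.9% at 21D. The comparisons with control at the other doses share the same 3 control tendons.

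**Figure D1:**
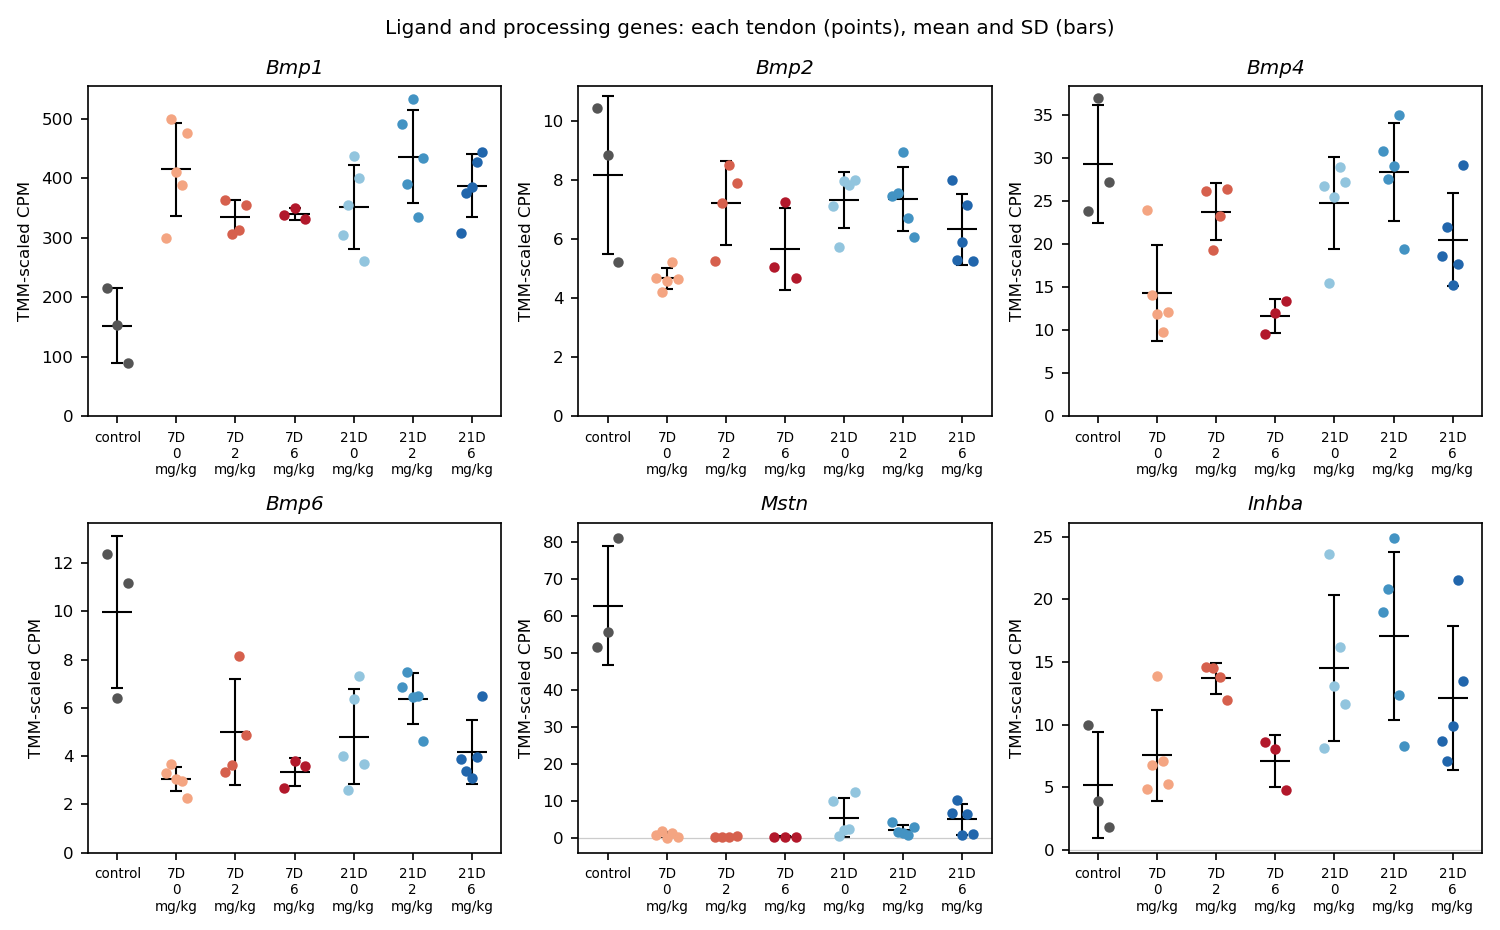
TMM-scaled CPM (y axis, linear, from 0) of the 6 ligand and processing genes in control tendons and in the repaired groups by time and dose (x axis). Points are single tendons and bars the mean and SD of 3 to 5 tendons. Bmp1 lies above the 3 control tendons in every repaired tendon, Mstn lies below them in every repaired tendon, and Bmp4 at 7D is higher at 2 mg/kg than at 6 mg/kg.

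Bmp1, which encodes the tolloid protease that trims procollagens and cleaves chordin, was higher after repair in all 6 repaired groups. The control tendons had 215.4, 153.1 and 89.3 CPM. The tendons at 7D 0 mg/kg had 300.3, 499.4, 410, 389.5 and 476.4 CPM. At 21D 0 mg/kg they had 304.1, 355.7, 438.1, 400.2 and 261.1 CPM. No repaired tendon, at any dose, came down to the highest control tendon, as was the case upward for 31.2% of all genes at 7D 0 mg/kg and for 25% at 21D 0 mg/kg. The increase was 2.72-fold at 7D (log2 fold change 1.44, SE 0.221, adjusted p 3.07e-06) and 2.31-fold at 21D (1.20, SE 0.219, adjusted p 4.03e-05). At 2 and 6 mg/kg the log2 fold change was 1.13 (SE 0.225) and 1.16 (SE 0.237) at 7D, and 1.52 (SE 0.222) and 1.34 (SE 0.220) at 21D, with the largest adjusted p 0.000137. All of these calls remained without any 1 tendon. In a fit with the share of counts on the skeletal muscle list as a covariate, called the muscle share, the Bmp1 calls at 7D 2 mg/kg (0.76, adjusted p 0.295) and 7D 6 mg/kg (0.79, adjusted p 0.266) were lost, and the other 4 remained.

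Bmp2, a ligand known for inducing bone formation, was lower at 7D 0 mg/kg. The control tendons had 10.5, 8.86 and 5.23 CPM, against 4.69, 4.22, 4.59, 5.22 and 4.67 CPM at 7D 0 mg/kg and 7.14, 5.73, 7.96, 7.83 and 8.02 CPM at 21D 0 mg/kg. The 5 tendons at 7D were close to each other and just below the lowest control tendon, and those at 21D lay within the range of the controls. Bmp2 differed from control by a log2 fold change of -0.81 (SE 0.198, adjusted p 0.000754) at 7D and -0.16 (SE 0.200, adjusted p 0.477) at 21D. At 7D 6 mg/kg, with 5.07, 7.27 and 4.68 CPM, it was -0.54 (SE 0.227, adjusted p 0.0362), a call that was lost without control replicate 2 or 3 or without 7D 6 mg/kg replicate 1 or 5 (largest adjusted p 0.174). The 7D 2 mg/kg tendons, with 5.27, 7.23, 8.52 and 7.90 CPM, did not pass the test against control (-0.19, SE 0.210, adjusted p 0.433). The Bmp2 call at 7D 0 mg/kg was lost by library size alone (-0.25, adjusted p 0.295) and with the muscle share as covariate (-0.55, adjusted p 0.0989), and that at 7D 6 mg/kg was also lost in both, at 0.011 and -0.02, as well as in the fit restricted to the 2 groups and with limma-trend.

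Bmp4, a ligand of the same branch as Bmp2 with a part in the attachment of tendons to bone, was lower at 7D 0 mg/kg and 7D 6 mg/kg. It stood at 23.8, 37.0 and 27.2 CPM in the control tendons. It stood at 23.98, 14.1, 11.9, 9.80 and 12.1 CPM at 7D 0 mg/kg, where replicate 1 overlapped the controls and the other tendons lay below them. At 7D 6 mg/kg it stood at 9.53, 12.04 and 13.4 CPM, all below the controls. Bmp4 differed from control by a log2 fold change of -1.03 (SE 0.246, adjusted p 0.000632) and -1.33 (SE 0.287, adjusted p 0.000238) in these groups. At 7D 2 mg/kg, with 26.2, 19.3, 23.2 and 26.4 CPM, it was -0.30 (SE 0.262, adjusted p 0.303). None of the 21D groups passed the test, with log2 fold changes of -0.25, -0.05 and -0.51 at 0, 2 and 6 mg/kg. The Bmp4 call at 7D 0 mg/kg was lost by library size alone (-0.45, adjusted p 0.121) and with the muscle share as covariate (-0.79, adjusted p 0.0646), and that at 7D 6 mg/kg with the covariate (-0.86, adjusted p 0.326).

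Bmp6, a BMP also known as the inducer of hepcidin in the liver, was lower in 5 of the 6 repaired groups. The controls had 12.4, 6.42 and 11.2 CPM. The 7D 0 mg/kg tendons had 3.29, 3.67, 3.05, 2.99 and 2.28 CPM, all below the controls. At 21D 0 mg/kg they had 4.01, 2.61, 6.38, 7.31 and 3.68 CPM, which overlapped the lowest control tendon. Bmp6 differed from control by a log2 fold change of -1.71 (SE 0.307, adjusted p 2.56e-05) at 7D and -1.05 (SE 0.306, adjusted p 0.00406) at 21D. In the other groups it was -1.003 and -1.58 at 7D 2 and 6 mg/kg and -1.26 at 21D 6 mg/kg, all past the threshold, whereas 21D 2 mg/kg was at -0.64 (SE 0.307, adjusted p 0.0651). The Bmp6 calls at 7D 2 mg/kg and 21D 0 mg/kg were lost by library size alone (-0.43 and -0.48, adjusted p 0.237 and 0.164), and those at 7D 2 and 6 mg/kg with the muscle share as covariate (-0.63 and -1.21, adjusted p 0.614 and 0.286). At 7D 6 mg/kg no alternative brought the Bmp6 value closer to 0 than -0.97.

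Mstn encodes myostatin, a ligand made mainly by skeletal muscle fibres that limits their growth. It had the largest change of the 10 genes. The controls had 51.5, 55.6 and 81.1 CPM. The 7D 0 mg/kg tendons had 0.576, 1.81, 0, 1.33 and 0.0744 CPM, from 21, 66, 0, 46 and 3 counts. The 21D 0 mg/kg tendons had 9.77, 0.315, 2.14, 2.40 and 12.3 CPM. Every repaired tendon lay below every control tendon, as was the case for 30.7% of all genes at 7D 0 mg/kg and 27.8% at 21D 0 mg/kg. The log2 fold change was -6.37 (SE 1.04, adjusted p 6.84e-06) at 7D and -3.54 (SE 0.915, adjusted p 0.00156) at 21D. At 7D 2 and 6 mg/kg, where no tendon had more than 12 counts, it was -8.46 (95% interval -11.20 to -5.72) and -8.17 (95% interval -11.18 to -5.16). At 21D 2 and 6 mg/kg it was -4.91 (SE 0.966, adjusted p 8.59e-05) and -3.65 (SE 0.918, adjusted p 0.00131). Without replicate 2 the Mstn value at 7D 0 mg/kg was -6.99, and without replicate 5 that at 7D 2 mg/kg was -9.27.

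The level of Mstn moved with the share of skeletal muscle counts. In a fit with that share as a covariate beside the groups, Mstn was higher by 0.91 on the log2 scale per doubling of the muscle share (SE 0.0942, adjusted p 3.87e-08), where 22.9% of all genes had a called term. Grem1 was lower by 0.31 per doubling (log2 slope -0.31, SE 0.0811, adjusted p 0.00679), and none of the other 8 genes had a called term. With the covariate, Mstn was at -1.94 (adjusted p 0.018) at 7D 0 mg/kg and at -1.19 (adjusted p 0.0524) at 21D 0 mg/kg. It stayed called lower at 21D 2 mg/kg (-1.91, adjusted p 0.00386) and 21D 6 mg/kg (-1.44, adjusted p 0.0245). At 7D 2 and 6 mg/kg the direction turned, to 1.62 and 1.82, with neither past the threshold (adjusted p 0.411 and 0.324).

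Mstn was then set against the muscle list itself, a ratio chosen after the data were seen. The controls had a ratio of 190.5 ± 22.4 (SD, n = 3), given as the CPM of Mstn when only muscle-list counts make up the total. The ratio was 85.9 ± 65.0 (n = 5) at 7D 0 mg/kg, 197.7 ± 158.3 (n = 5) at 21D 0 mg/kg, 90.6 ± 28.3 (n = 5) at 21D 2 mg/kg and 133.1 ± 50.2 (n = 5) at 21D 6 mg/kg. By a 2-sided exact permutation test the tendons at 7D 0 mg/kg and those at 21D 2 mg/kg each gave p = 0.0357, the smallest that 3 against 5 tendons allow, and 0.0714 after Benjamini-Hochberg adjustment over 4 groups. The 21D 6 mg/kg group gave an exact p of 0.143 (adjusted 0.19) and the 21D 0 mg/kg group 0.821. At 7D 2 and 6 mg/kg the ratio was higher than in the controls, at 1912 ± 1901 (n = 4) and 1849 ± 1126 (n = 3). These groups were not tested. The mean at 7D 2 mg/kg depended on replicate 5 at 4678, with the others at 402.3, 1534 and 1035. In both groups the ratio rested on 1 to 12 Mstn counts and 1552 to 5920 muscle-list counts a tendon. Tnnt3 was the most abundant muscle-list gene in all 7 of these tendons, at 28.0 to 63.0 CPM of a summed 91.4 to 117.5 CPM. In the controls it was Myh4 or Acta1. The list, and so the ratio and the muscle share, was thus made up of other genes there than in the controls, which limits the comparison. In 3 of the 7 tendons the exact Poisson 95% limits, which cover counting error only, lay above 1000. The 7D 0 mg/kg group also held tendons with 0 and 3 Mstn counts. The 21D 0 mg/kg mean rested on 1 tendon, replicate 2, at 472.6 from 10 Mstn counts (exact Poisson 95% limits 227 to 869). The other 4 were at 181.3, 93.5, 91.4 and 149.8, of which 3 lay below the lowest control (171.6), and the median of the 5 was 149.8. Without replicate 2 the mean ratio was 129.0 ± 44.1 (n = 4), a log2 difference from control of -0.56.

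**Figure D2:**
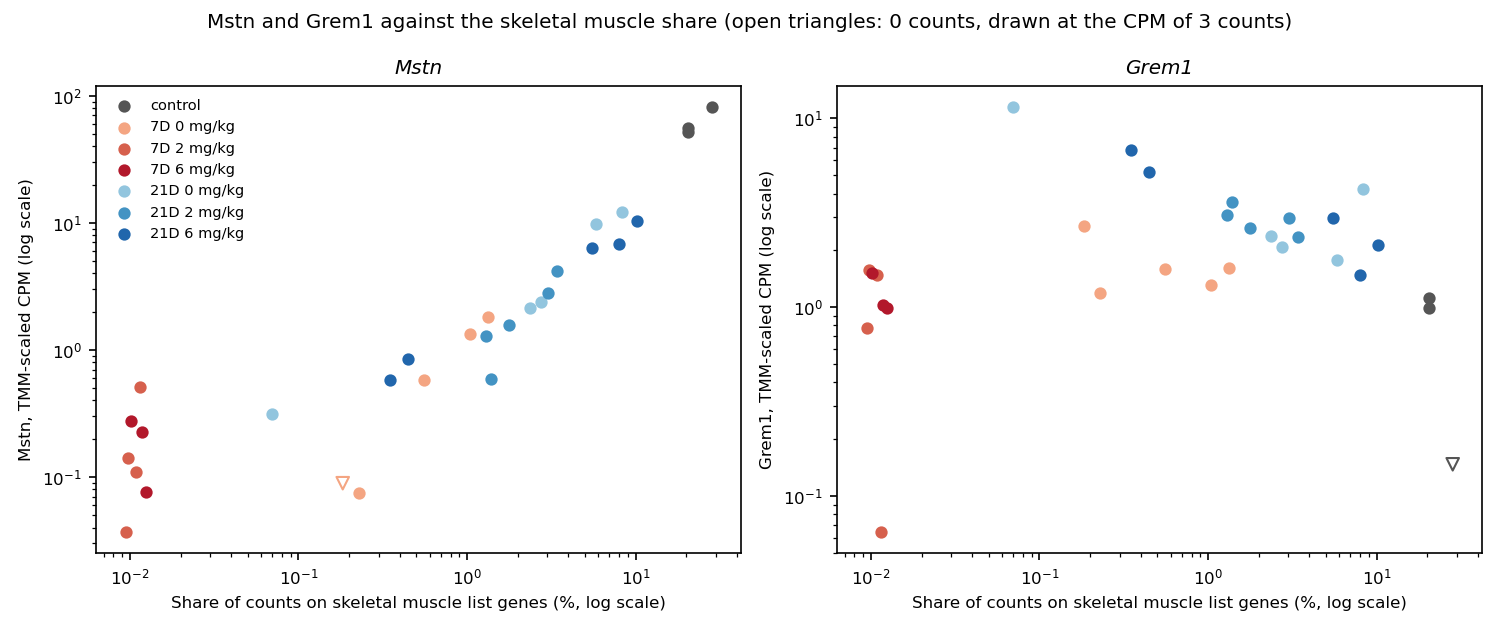
Levels of Mstn (left) and Grem1 (right) in TMM-scaled CPM (y axes, log scale) against the share of counts on the skeletal muscle list (x axes, %, log scale), 1 point per tendon and coloured by group. Open triangles are tendons with 0 counts, drawn at the CPM of 3 counts. The control tendons, at 20.35% to 28.31% muscle counts, have the highest Mstn, and the Grem1 high point of 11.5 CPM at 21D 0 mg/kg has a share of 0.0701%.

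Inhba encodes the βA subunit whose dimer is activin A, a ligand known from wound healing and fibrosis. It was higher than control in all 3 groups at 21D and at 7D 2 mg/kg. The controls spread widely, with 9.96, 3.89 and 1.80 CPM. At 21D 0 mg/kg the tendons had 8.12, 23.6, 13.1, 16.2 and 11.6 CPM, of which replicate 1 overlapped the highest control. At 7D 0 mg/kg they had 4.88, 6.74, 13.8, 7.07 and 5.26 CPM, which overlapped the controls. The log2 fold change was 1.46 (SE 0.472, adjusted p 0.00881) at 21D 0 mg/kg, 1.69 (SE 0.476, adjusted p 0.0029) at 21D 2 mg/kg and 1.20 (SE 0.467, adjusted p 0.0273) at 21D 6 mg/kg.

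At 7D 2 mg/kg, with 14.6, 14.5, 13.8 and 11.9 CPM, Inhba lay above the controls in 4 of 4 tendons (1.38, SE 0.485, adjusted p 0.0143), where 35.8% of all genes were called higher. It did not pass the test at 7D 0 mg/kg (0.52, SE 0.457, adjusted p 0.316) or 7D 6 mg/kg (0.43, SE 0.505, adjusted p 0.462). Without control replicate 4, the lowest, the Inhba calls at 7D 2 mg/kg, 21D 0 mg/kg and 21D 6 mg/kg were lost (largest adjusted p 0.103, 0.0762 and 0.177 among fits without 1 tendon). Those at 7D 2 mg/kg and 21D 6 mg/kg were also lost without control replicate 3, and that at 21D 6 mg/kg without its own replicate 4. The call at 21D 2 mg/kg remained in every such fit. Without control replicate 2, the highest, the Inhba values were larger, at 2.17 at 7D 2 mg/kg and at 2.25, 2.47 and 2.004 at 21D 0, 2 and 6 mg/kg. With the muscle share as covariate the calls at 21D 0 mg/kg (0.91, adjusted p 0.138) and 21D 6 mg/kg (0.78, adjusted p 0.178) were lost, and at 7D 2 mg/kg the direction turned (-0.14, adjusted p 0.939). Those at 21D 0 and 6 mg/kg were also lost in fits restricted to control and the group in question.

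**Figure D3:**
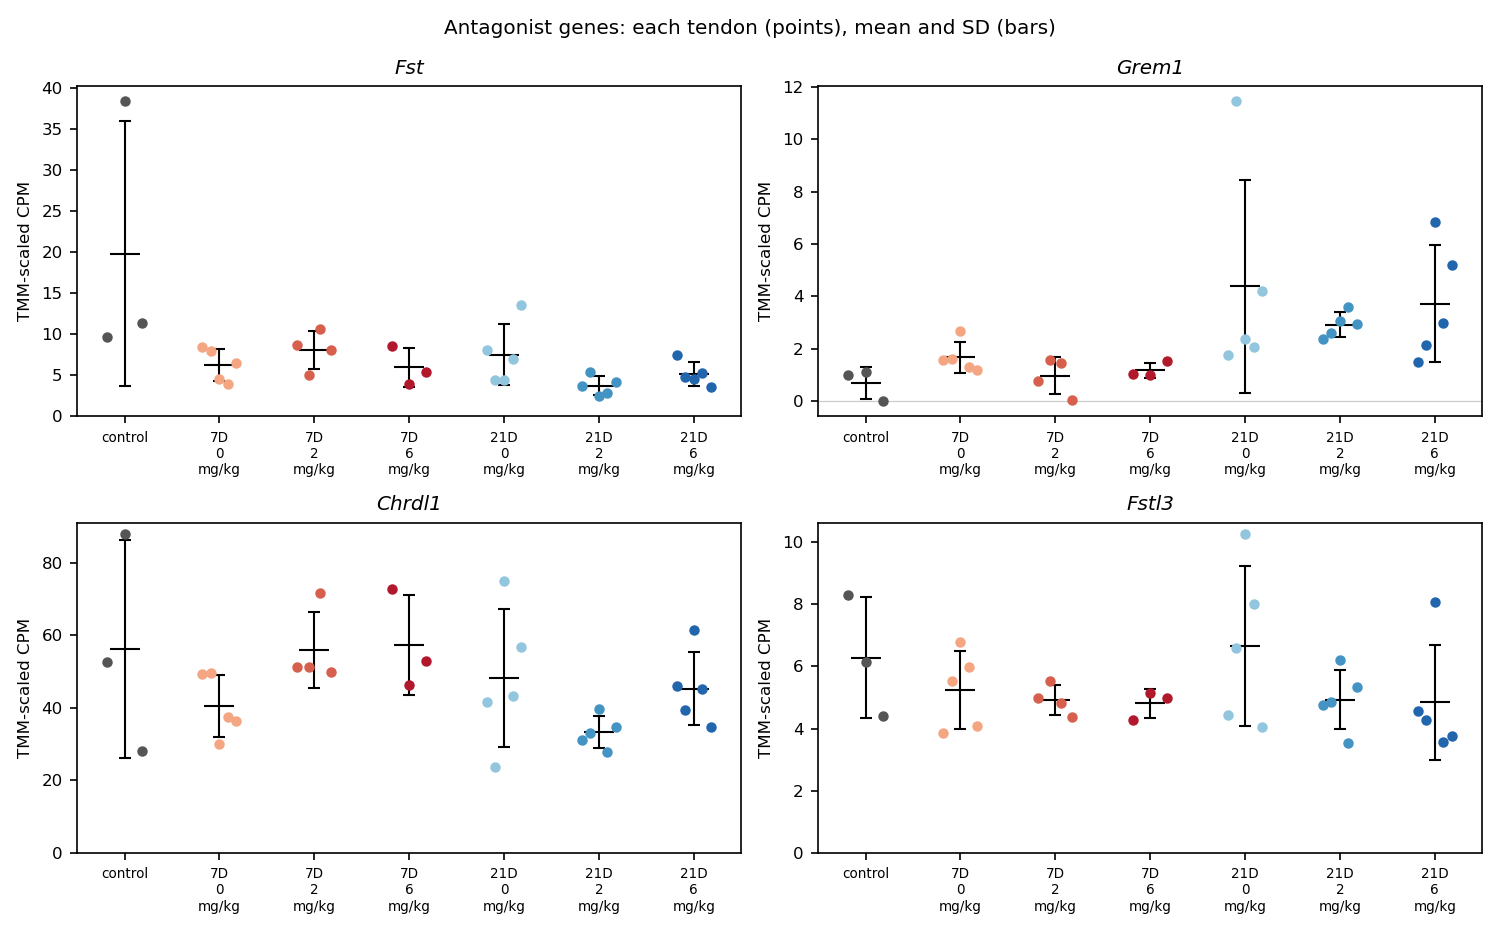
TMM-scaled CPM (y axis, linear, from 0) of the 4 antagonist genes in control tendons and in the repaired groups by time and dose (x axis), with single tendons as points and the mean and SD of 3 to 5 tendons as bars. Fst in the controls is set apart by 1 tendon at 38.5 CPM, and Grem1 is higher at 21D than in the controls, which lie between 0 and 1.12 CPM.

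Among the antagonists, Fst was called lower in all 6 repaired groups and Grem1 higher in the 3 groups at 21D. Fst encodes follistatin, which binds activin and myostatin. The control tendons had 9.63, 38.5 and 11.3 CPM, so that replicate 3 stood more than 3 times above the other two. At 7D 0 mg/kg the tendons had 8.39, 7.92, 4.56, 3.97 and 6.501 CPM, and at 21D 2 mg/kg they had 3.65, 5.43, 2.42, 2.88 and 4.18 CPM, all below the lowest control. At 21D 0 mg/kg, with 8.10, 4.41, 4.45, 7.03 and 13.6 CPM, they overlapped the controls.

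The log2 fold change of Fst was -1.66 (SE 0.402, adjusted p 0.000704), -1.30 (SE 0.429, adjusted p 0.00937) and -1.73 (SE 0.473, adjusted p 0.0024) at 7D 0, 2 and 6 mg/kg. It was -1.41 (SE 0.402, adjusted p 0.00362), -2.42 (SE 0.407, adjusted p 1.25e-05) and -1.95 (SE 0.405, adjusted p 0.000191) at 21D. Without control replicate 3 the calls were lost in all 3 groups at 7D (log2 fold change -0.71, -0.36 and -0.79, adjusted p 0.109, 0.448 and 0.112) and at 21D 0 mg/kg (-0.45, adjusted p 0.321). The calls at 21D 2 mg/kg (-1.46) and 21D 6 mg/kg (-1.01, adjusted p 0.0282) remained without it. The same 4 calls were lost with the muscle share as covariate, at -0.86, 0.35 and -0.10 at 7D and -0.94 at 21D 0 mg/kg (adjusted p 0.179, 0.819, 0.955 and 0.0757). In fits restricted to control and the group in question those at 7D 2 mg/kg and 21D 0 mg/kg were lost, and by library size alone that at 7D 2 mg/kg (adjusted p 0.0942).

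Grem1 encodes gremlin, which binds BMP2 and BMP4 and is known in fibrosis. Its counts were low, and it passed the filter on expression only through 21D 0 and 6 mg/kg, where its means were highest. The filter thus favoured higher levels at 21D. The controls had 0.991, 1.12 and 0 CPM, from 21, 28 and 0 counts. At 21D 0 mg/kg the tendons had 1.77, 11.5, 2.39, 2.09 and 4.202 CPM, and at 21D 2 mg/kg they had 2.36, 2.62, 3.08, 3.59 and 2.96 CPM. In both groups, and at 21D 6 mg/kg with 1.48, 2.15, 6.84, 2.97 and 5.199 CPM, all 5 tendons lay above the 3 controls, as was the case for 25%, 29.5% and 25.9% of all genes in those comparisons.

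The log2 fold change of Grem1 was 2.54 (SE 0.753, adjusted p 0.00479), 1.96 (SE 0.738, adjusted p 0.0214) and 2.30 (SE 0.747, adjusted p 0.00934) at 21D 0, 2 and 6 mg/kg. At 21D 2 mg/kg the call was lost without control replicate 4, which had 0 counts (adjusted p 0.1). Without 21D 0 mg/kg replicate 2, the tendon at 11.5 CPM, the Grem1 value at 21D 0 mg/kg was 1.79, and the call remained. In fits restricted to control and the group in question the calls at 21D 0 mg/kg and 21D 6 mg/kg were lost. At 7D, with 1.19 to 2.69 CPM at 0 mg/kg, it was 1.16 (SE 0.723, adjusted p 0.154), and at 2 and 6 mg/kg 0.41 and 0.66 with neither past the threshold. With the muscle share as a covariate the Grem1 calls at 21D were lost (log2 fold change 1.17, 0.88 and 1.12 in order of dose, largest adjusted p 0.242).

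Chrdl1 encodes chordin-like 1, a BMP antagonist. It had 52.7, 88.0 and 28.0 CPM in the controls and 30.1 to 49.6 CPM (median 37.4) at 7D 0 mg/kg, within the range of the controls. Among the 6 comparisons with control it was called only at 21D 2 mg/kg, lower, where its 31.0, 33.0, 39.8, 27.8 and 34.7 CPM overlapped the controls (log2 fold change -0.76, SE 0.290, adjusted p 0.0226). That call was lost without control replicate 3 (-0.25, adjusted p 0.484), and also by library size alone, in the fit restricted to the 2 groups, with the muscle share as covariate and with limma-trend (largest adjusted p 0.395). Fstl3 encodes a follistatin-like protein that binds activin and myostatin, and was called in none of the 6 comparisons with control. It had 8.30, 6.13 and 4.41 CPM in the controls, 3.84 to 6.80 CPM at 7D 0 mg/kg and 4.06 to 10.3 CPM at 21D 0 mg/kg, and the 95% intervals of its log2 fold change were -0.85 to 0.32 and -0.51 to 0.67.

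**Figure D4:**
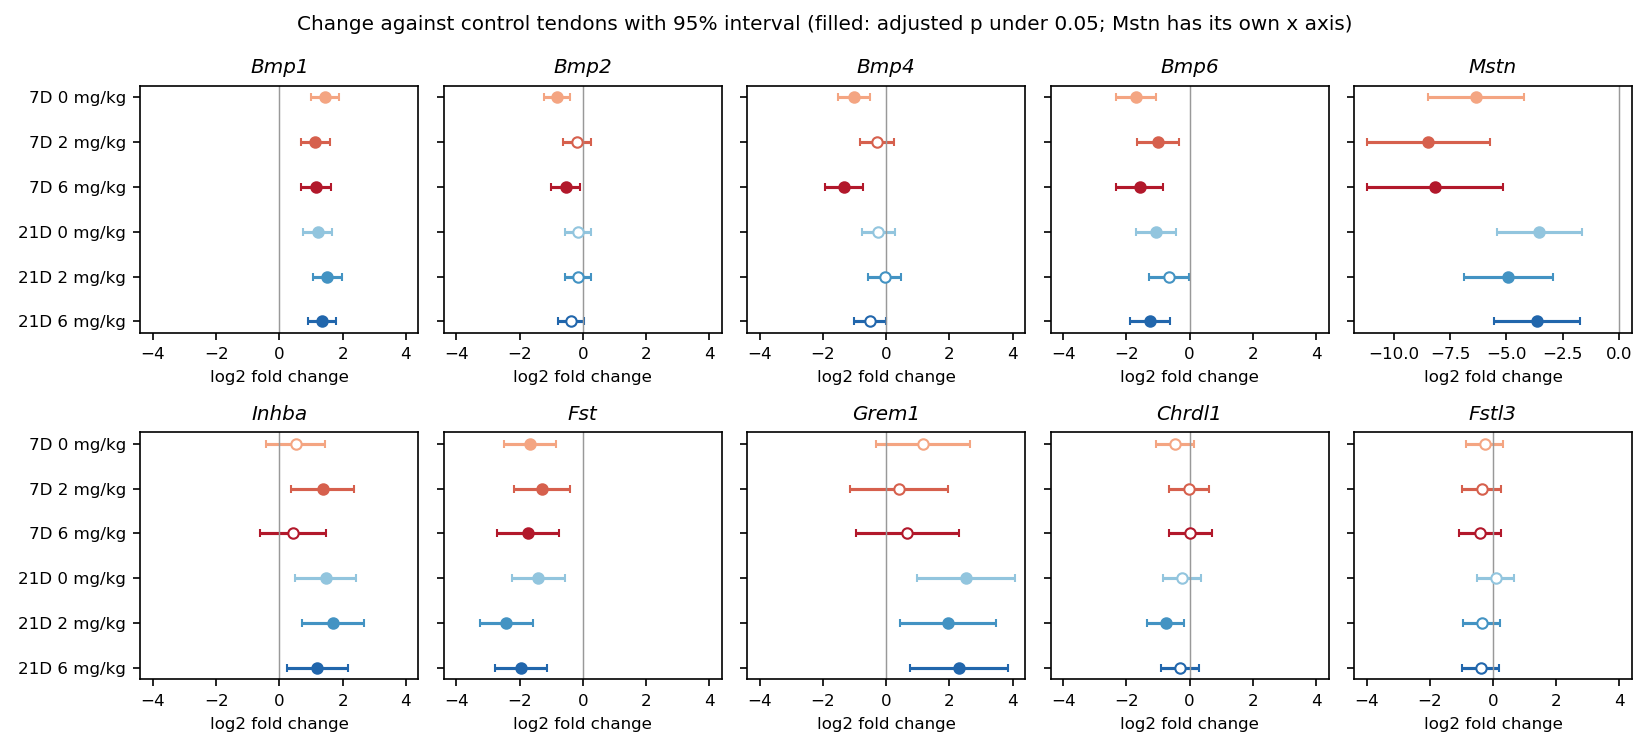
Log2 fold change of the 10 genes against the 3 control tendons (x axis) for each repaired group (y axis), with 95% intervals from edgeR's quasi-likelihood fit. Filled points have an adjusted p under 0.05, and Mstn has an x axis of its own. Bmp1 is right of 0 and Mstn and Fst are left of 0 in all 6 groups, whereas Grem1 has filled points at 21D and none at 7D.

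At the other doses the counts of the 10 genes against control were as follows. At 7D 2 mg/kg 5 were called, 2 higher and 3 lower, where 69.7% of all genes were called (35.8% higher and 34% lower). At 7D 6 mg/kg 6 were called, 1 higher and 5 lower, where 67.9% were called (34.1% higher and 33.8% lower). At 21D 2 mg/kg 6 were called, 3 higher and 3 lower, beside 69.1% of all genes (33.8% higher and 35.3% lower). At 21D 6 mg/kg 6 were called, 3 higher and 3 lower, beside 64.1% (30.8% higher and 33.3% lower). Groups that did not overlap the controls were common among all genes here too. At 7D 2 mg/kg 30.1% lay wholly above and 29.1% wholly below the controls, at 7D 6 mg/kg 34.6% and 32.3%, at 21D 2 mg/kg 29.5% and 30.3%, and at 21D 6 mg/kg 25.9% and 27.8%.

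The second question was how the genes differed between 21D and 7D at the same dose. No control tendon enters the difference of these group means, but the controls share in the estimate of the spread behind each p. At 0 mg/kg 2 of the 10 genes were called, Bmp2 and Bmp4, both higher at 21D, where 5.35% of all genes were called (2.88% higher and 2.47% lower). Bmp2 was 1.57-fold higher (log2 fold change 0.65, SE 0.174, adjusted p 0.03), and its 5 tendons at 21D all lay above its 5 tendons at 7D, as was the case for 3.46% of all genes, with 3.38% wholly lower. Bmp4 was 1.72-fold higher (0.79, SE 0.218, adjusted p 0.0351), and its levels overlapped. Each of these calls was lost in 8 of the 10 fits that left out 1 tendon, with the largest adjusted p 0.0817 for Bmp2 and 0.107 for Bmp4. Both were also lost by library size alone and with the muscle share as covariate (largest adjusted p 0.106 for Bmp2 and 0.118 for Bmp4). Over the alternatives other than leaving out a tendon, the log2 fold changes stayed at 0.55 to 0.66 for Bmp2 and 0.69 to 0.82 for Bmp4. Without 1 tendon they were 0.615 to 0.726 for Bmp2 and 0.675 to 1.05 for Bmp4. The Bmp4 call was lost as well in the fit restricted to the 2 groups. Both were lost without any 1 of 7D 0 mg/kg replicates 2, 3, 4 and 5 and of 21D 0 mg/kg replicates 1, 3, 4 and 5.

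Mstn at 0 mg/kg was at 2.83 (SE 0.883, adjusted p 0.0566). Inhba was at 0.94 (SE 0.383, adjusted p 0.133), and Grem1 at 1.38 (SE 0.572, adjusted p 0.14), so that neither passed the test between the time points, although at 0 mg/kg both were called against control at 21D and not at 7D. Fst was at 0.26 (SE 0.358, adjusted p 0.714).

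At 2 mg/kg none of the 10 genes was called in the main edgeR fit, where 13.1% of all genes were called (7.09% higher and 5.98% lower). Without adjustment 4 genes were under p 0.05, and DESeq2 called 4 (Mstn, Fst, Grem1 and Chrdl1). With the replicate block edgeR called 2 (Fst and Chrdl1). It called 3 in the fit restricted to the 2 groups and 3 with the muscle share as covariate. Mstn was at 3.55 (SE 1.20, adjusted p 0.0513), Fst at -1.12 (SE 0.382, adjusted p 0.0524), Chrdl1 at -0.75 (SE 0.269, adjusted p 0.0647) and Grem1 at 1.55 (SE 0.639, adjusted p 0.109). The levels of Mstn and Grem1 were all higher at 21D, as for 11.3% of all genes, and those of Chrdl1 all lower, as for 5.93%. At 6 mg/kg 2 genes were called, where 13.1% of all genes were called (8.54% higher and 4.55% lower). Bmp4 was higher at 21D (0.82, SE 0.260, adjusted p 0.0375), with 18.7, 21.9, 15.2, 17.7 and 29.1 CPM at 21D and levels that did not overlap those at 7D, as for 10.8% of all genes, with 10.6% wholly lower. Mstn was higher too (4.52, SE 1.28, adjusted p 0.0209). In that comparison 30 of 30 skeletal muscle markers were called higher, with a median of 9.43, and with the muscle share as covariate the direction of Mstn turned (-3.26, adjusted p 0.087). At 2 mg/kg 30 of 30 were called higher as well, and Mstn turned to -3.53 (adjusted p 0.0222). The Bmp4 call at 6 mg/kg was lost with the covariate, by library size alone and in the fit restricted to the 2 groups (largest adjusted p 0.592). Its log2 fold change lay at 0.493 to 0.885 over the alternatives other than leaving out a tendon, and at 0.661 to 0.936 without 1 tendon. The Mstn call was lost without any 1 of the 3 tendons at 7D 6 mg/kg or without 21D 6 mg/kg replicate 2 (largest adjusted p 0.0926), and the Bmp4 call was lost without any 1 of the same 4 tendons or without 21D 6 mg/kg replicate 5 (largest adjusted p 0.173).

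The third question was whether the dose of the HPGDS inhibitor mattered. At 7D none of the 10 genes passed the F-test over the 3 doses, where 2.05% of all genes were called. By unadjusted p 2 genes were under 0.05, Bmp2 and Bmp4, and DESeq2 called 1, Bmp4. With the muscle share as covariate 3 were called, Bmp4, Mstn and Grem1. Bmp4 was at an adjusted p of 0.0541 (unadjusted p 0.00118) in edgeR. Its 4 tendons at 7D 2 mg/kg, at 19.3 to 26.4 CPM, lay above the 3 at 6 mg/kg, at 9.53 to 13.4 CPM, as was the case for 5.52% of all genes. Those at 0 mg/kg overlapped the 2 mg/kg tendons through replicate 1. The middle dose had the highest mean. Neither its difference from 0 mg/kg (0.73, adjusted p 0.094) nor that of 6 from 2 mg/kg (-1.03, adjusted p 0.233) passed the test. The 6 mg/kg tendons differed from those at 0 mg/kg by -0.30 (95% interval -0.83 to 0.22).

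Bmp2 at 7D had an adjusted p of 0.179 over the doses. Its 4 tendons at 2 mg/kg all lay above its 5 tendons at 0 mg/kg (0.63, 95% interval 0.25 to 1.005, adjusted p 0.0698), as was the case for 2.77% of all genes. For Inhba at 7D the difference between 2 and 0 mg/kg was 0.86 (95% interval 0.03 to 1.69, adjusted p 0.302). For Bmp1 it was -0.31 (95% interval -0.71 to 0.09), and for Fst 0.36 (95% interval -0.42 to 1.14).

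At 21D the F-test over the doses called none of the 10 genes, and 0% of all genes. By unadjusted p 1 gene was under 0.05, Fst (p 0.0312, adjusted p 0.431), and DESeq2 and limma-trend each called 0. The difference of Fst between 2 and 0 mg/kg was -1.01 (95% interval -1.76 to -0.27, adjusted p 0.442). For Bmp1 the difference between 6 and 0 mg/kg was 0.14 (95% interval -0.23 to 0.51), for Inhba -0.26 (95% interval -1.04 to 0.53), and for Grem1 -0.23 (95% interval -1.38 to 0.92). The test of whether the dose effect differed between 21D and 7D called none of the 10 genes, where 0.39% of all genes were called. By unadjusted p 2 were under 0.05, Fst and Chrdl1, and DESeq2 and limma-trend each called 0. With the muscle share as covariate 1 was called, Mstn. A p that misses the threshold does not show that the doses act alike. Intervals of several genes, among them Grem1, Mstn, Inhba and Fst, span more than a doubling.

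Other genes of the pathway were counted whole, by lists made with earlier results of these data known. Of the 54 pathway genes tested outside the 10, 38 (70.4%) were called at 7D 0 mg/kg and 31 (57.4%) at 21D 0 mg/kg, where 71.4% and 65.9% of all genes were called. The counts of the single lists below are to be read against those shares of all genes, and by library size alone against 78.8% at 7D (59.5% higher and 19.3% lower) and 74.3% at 21D (57.9% higher and 16.5% lower). Of 18 other ligand genes 8 were in the table and 7 were tested. At 7D 0 mg/kg 5 were called, 1 higher and 4 lower, and at 21D 0 mg/kg 4 were called, 1 higher and 3 lower, near the 71.4% and 65.9% of all genes, with a median log2 fold change of -1.33 and -0.77. Inhbb, the βB subunit of activin B, was the one that was higher, from 4.37 ± 2.42 CPM (SD, n = 3) in control to 17.0 ± 1.18 CPM (n = 5) at 7D and 8.79 ± 2.10 CPM (n = 5) at 21D. Its log2 fold change was 1.94 (SE 0.291, adjusted p 2.29e-06) and 0.99 (SE 0.281, adjusted p 0.00345), and 21D was below 7D (-0.95, SE 0.231, adjusted p 0.0195). The Inhbb call at 21D was lost without control replicate 4, and the difference between the time points without 21D 0 mg/kg replicate 4 or 5.

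Gdf11, the closest relative of myostatin, was lower at 7D (-1.33, SE 0.207, adjusted p 3.72e-06) and 21D (-0.77, SE 0.207, adjusted p 0.00232). Bmp7 was lower too (-2.14 and -3.10, adjusted p 0.00902 and 0.000685, with -3.06 at 7D without 7D 0 mg/kg replicate 5), as was Bmp3, a BMP that opposes bone formation (-2.11 and -2.31, adjusted p 0.00221 and 0.00126), though not without control replicate 2 at either time. Bmp7 and Bmp3 reached the filter's mean of 3 CPM in control only, so the filter favoured lower levels after repair. Bmp5 was lower at 7D (-1.68, adjusted p 0.0215), a call lost without control replicate 4 or without 7D 0 mg/kg replicate 5.

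Of the receptors and co-receptors, 16 names were listed, 2 of which (Hjv and Hfe2) are names of 1 gene, and 13 genes were tested. At 7D 0 mg/kg 10 were called, 3 higher and 7 lower, and at 21D 0 mg/kg 8 were called, 2 higher and 6 lower, beside 71.4% and 65.9% of all genes. Scaling by library size alone turned these counts to 6 higher and 3 lower at 7D and 4 higher and 3 lower at 21D. Bmpr1a, a type I receptor of BMPs, was at -0.47 (SE 0.143, adjusted p 0.00482) and -0.36 (SE 0.143, adjusted p 0.0307), and Bmpr2, their type II receptor, at -0.42 (SE 0.172, adjusted p 0.033) and -0.31 (SE 0.172, adjusted p 0.117). Acvr2a, which binds activin and myostatin, was at -0.36 (SE 0.117, adjusted p 0.00856) and -0.51 (SE 0.117, adjusted p 0.00052). The direction of these small decreases flipped at 7D under library size alone for all 3 receptors, and at 21D for Bmpr1a and Acvr2a. At 7D the Bmpr1a and Acvr2a calls were lost without control replicate 3, and the Bmpr2 call without control replicate 2 or 3 or 7D 0 mg/kg replicate 3 or 5. At 21D the Bmpr1a call was lost without control replicate 2 or 3 or 21D 0 mg/kg replicate 2 or 5.

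Acvr1b, the type I receptor for activin, was lower under either scaling (-1.58 and -1.55, adjusted p 6.26e-08 and 1.84e-07), and Rgmb, a BMP co-receptor, likewise (-1.27 and -1.03, adjusted p 1.54e-08 and 7.54e-07). Hjv, a BMP co-receptor that muscle expresses strongly, was lower by the most of the receptors tested (-6.51 and -3.44, adjusted p 2.02e-05 and 0.00488). Without 7D 0 mg/kg replicate 2 the Hjv value at 7D was -7.21, and without 21D 0 mg/kg replicate 5 that at 21D was -4.198. Eng, an endothelial co-receptor, was higher (1.07 and 0.67, adjusted p 0.000126 and 0.00869), at 21D not without control replicate 2, and Acvrl1 was higher at both times (0.61 and 0.67, adjusted p 7.18e-05 and 3.43e-05). Acvr2b, with 3.24 ± 0.695 CPM in control after TMM scaling, was under the filter, which was set on CPM before that scaling, and Nog was not analysed here. Of the 54 pathway genes 3 (5.56%) were called over the doses at 7D, where 2.05% of all genes were called. They were Hjv (adjusted p 0.00214), Pcsk6 (adjusted p 0.004) and Pcolce2, spelled PCOLCE2 in the count table (adjusted p 0.00271), which had 26.9 ± 5.03, 122.8 ± 76.4 and 29.2 ± 1.97 CPM at 0, 2 and 6 mg/kg (n = 5, 4 and 3). Hjv had 17.7 ± 16.8, 0.0803 ± 0.0569 and 0.254 ± 0.142 CPM there, and 24 of 30 skeletal muscle markers were called in the same test, with muscle shares of 0.183% to 1.34%, 0.00946% to 0.0114% and 0.0101% to 0.0125%. The part of muscle in the Hjv call was not tested.

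**Figure D5:**
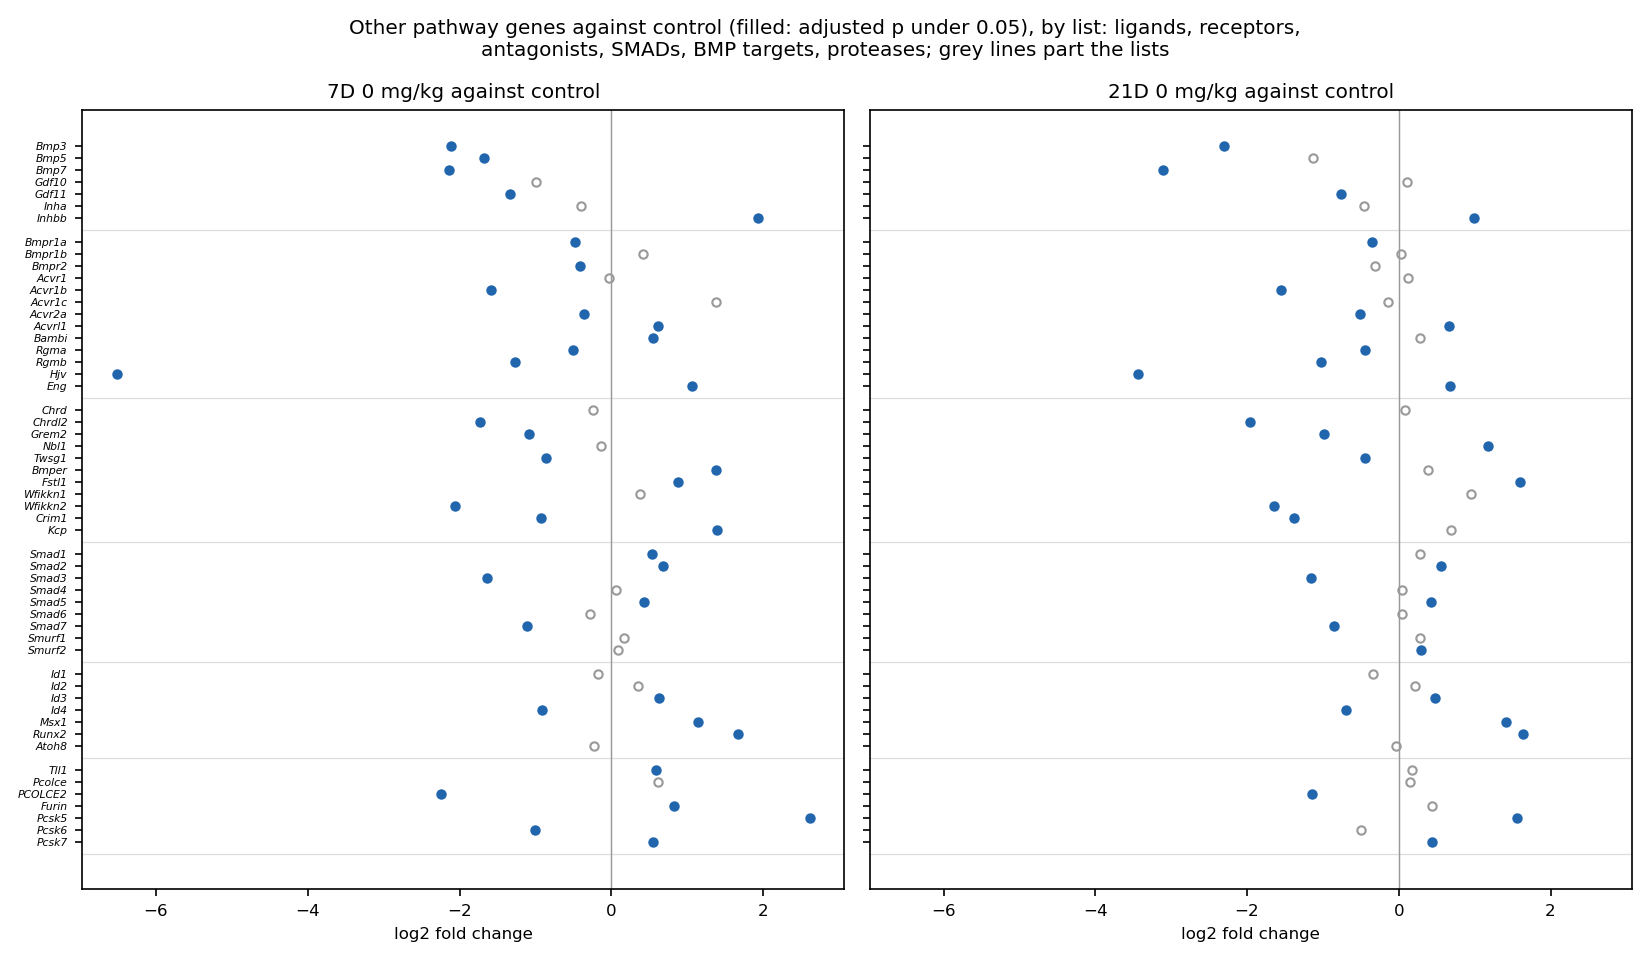
Log2 fold change (x axis, shared by both panels) of the tested pathway genes at 7D 0 mg/kg and 21D 0 mg/kg against control, 1 gene per row, in 6 lists parted by grey lines. Filled points have an adjusted p under 0.05 in edgeR's quasi-likelihood test. Hjv lies farthest left in both panels and Pcsk5 farthest right at 7D.

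Of 17 other secreted antagonists and modulators 11 were tested, and 8 were called at 7D 0 mg/kg (3 higher and 5 lower) and 7 at 21D 0 mg/kg (2 higher and 5 lower), near the 71.4% and 65.9% of all genes. By library size alone these counts were 3 higher and 1 lower, and 6 higher and 3 lower. Fstl1, a follistatin-like secreted protein, was higher at 21D (1.60, SE 0.363, adjusted p 0.000462) and at 7D (0.88, SE 0.351, adjusted p 0.0272), at 7D not without control replicate 3 or 4 or 7D 0 mg/kg replicate 5. Nbl1, a BMP antagonist of the DAN family, was higher at 21D (1.18, SE 0.256, adjusted p 0.000299) and at -0.13 (adjusted p 0.647) at 7D, and it rose between 7D and 21D (1.31, SE 0.215, adjusted p 0.00153). Bmper and Kcp, which bind BMPs, were higher at 7D (1.38 and 1.39, adjusted p 0.000581 and 0.00505), Kcp by 2.14 without control replicate 4, and Bmper was lower at 21D than at 7D (-0.997, adjusted p 0.0306), a call lost without any 1 of 7D 0 mg/kg replicates 1, 3 and 5 and of 21D 0 mg/kg replicates 1 and 4. Wfikkn2, which binds myostatin and GDF11, was lower (-2.06 and -1.65, adjusted p 2.61e-06 and 6.08e-05). Chrdl2, a relative of Chrdl1, was lower as well (-1.72 and -1.96, adjusted p 0.01 and 0.00475), though not without control replicate 4. Wfikkn2 and Chrdl2 reached the filter's mean of 3 CPM in control only, so the filter favoured lower levels after repair. Kcp reached that mean in repaired groups only, so for Kcp the filter favoured higher levels after repair. Crim1 was lower at both times (-0.92 and -1.38, adjusted p 0.00217 and 4.35e-05).

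Inside the cell, 9 of 10 SMAD and SMAD ligase genes were tested, and 5 were called at each time, 3 higher and 2 lower, beside 71.4% and 65.9% of all genes. Without TMM 8 were called at each time, 6 higher and 2 lower at 7D and 7 higher and 1 lower at 21D, beside 78.8% and 74.3% of all genes. Smad3, which carries activin and myostatin signals, was lower (-1.64 and -1.16, adjusted p 5.41e-08 and 1.18e-05), and so was the inhibitory Smad7 (-1.10 and -0.85, adjusted p 6.92e-05 and 0.00129), at 21D not without control replicate 3. Smad2 was higher (0.68 and 0.56, adjusted p 1.54e-07 and 4.31e-06), and Smad1, of the BMP branch, was higher at 7D (0.54, adjusted p 0.000644). Smad5 was higher at both times (0.43 and 0.42, adjusted p 0.0161 and 0.0192), though at neither without control replicate 4.

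Of 10 BMP target genes 7 were tested, and 4 were called at each time, 3 higher and 1 lower, beside 71.4% and 65.9% of all genes. By library size alone these counts were 4 and 3, all higher. Id1, a direct BMP target, was not called at 0 mg/kg (-0.17, SE 0.310, adjusted p 0.633, and -0.34, SE 0.309, adjusted p 0.343), whereas it was called lower at 21D 2 mg/kg (-1.05, adjusted p 0.00384) and 21D 6 mg/kg (-0.92, adjusted p 0.0114). The F-test of Id1 over the doses at 21D gave an adjusted p of 0.417. Id3 was higher (0.62, SE 0.189, adjusted p 0.00511, and 0.47, SE 0.188, adjusted p 0.0299), at 7D not without control replicate 2, and at 21D not without control replicate 2 or 4 or 21D 0 mg/kg replicate 1 or 3. Runx2, a transcription factor of bone formation, was higher (1.67 and 1.64, adjusted p 9.07e-05 and 0.000155), and so was Msx1 (1.14 and 1.41, adjusted p 0.00278 and 0.000532). Id4 was lower (-0.91 and -0.69, adjusted p 0.00942 and 0.0468), at 7D not without control replicate 3, and at 21D not without control replicate 2 or 3 or 21D 0 mg/kg replicate 2, 3 or 4.

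Of 8 genes of tolloid proteases, their enhancers and proprotein convertases 7 were tested, and 6 were called at 7D 0 mg/kg (4 higher and 2 lower) and 3 at 21D 0 mg/kg (2 higher and 1 lower), beside 71.4% and 65.9% of all genes. By library size alone these counts were 5 higher and 1 lower, and 5 higher and none lower. Pcsk5, a convertase that cleaves ligand precursors, was higher (2.62, SE 0.269, adjusted p 7.62e-09, and 1.56, SE 0.255, adjusted p 1.06e-05) and fell between 7D and 21D (-1.06, SE 0.207, adjusted p 0.00586). Furin was higher at 7D (0.83, adjusted p 0.000694) and at 0.44 (adjusted p 0.0527) at 21D. Pcsk7 was higher at both times (0.55 and 0.44, adjusted p 1.46e-05 and 0.000238). Pcsk6 was lower at 7D (-1.01, adjusted p 0.00897), though not without control replicate 2. PCOLCE2 encodes an enhancer of the procollagen cleavage by tolloid proteases. Its mean was 127.2 ± 90.4 CPM (SD, n = 3) in control and 26.9 ± 5.03 CPM (n = 5) at 7D 0 mg/kg. PCOLCE2 was lower at 7D (-2.24, SE 0.443, adjusted p 8.06e-05) and 21D (-1.14, SE 0.441, adjusted p 0.0255). Without control replicate 2 these values were -1.62 (adjusted p 0.0031) and -0.51 (adjusted p 0.352). The call at 21D was also lost without 21D 0 mg/kg replicate 1 or 5, by library size alone, in the fit restricted to the 2 groups and with limma-trend.

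Some of these pathway calls were lost in other fits. By library size alone the calls of Bmp5, Bmpr1a, Bmpr2, Acvr2a, Chrdl2, Crim1, Id4 and Pcsk6 at 7D 0 mg/kg and of Gdf11, Bmpr1a, Acvr2a, Smad7 and Id4 at 21D 0 mg/kg were lost. With the muscle share as covariate the calls of Bmp5, Bmp7, Bmpr1a, Bmpr2, Acvr2a, Chrdl2, Fstl1, Crim1, Smad5, Id4, Runx2, Furin and Pcsk6 at 7D 0 mg/kg and of Bmpr1a, Hjv, Chrdl2, Smad5 and Id4 at 21D 0 mg/kg were lost, as was the difference of Inhbb between the times. The fold changes of lost calls moved by unequal amounts in that fit, with Bmp7 at -1.91 and Pcsk6 at -0.98 but Bmp5 at -0.084 at 7D 0 mg/kg, and what part muscle content had was not tested. In fits restricted to the groups compared the calls of Bmpr2, Fstl1, Smad5 and Pcsk6 at 7D 0 mg/kg and of Inhbb, Bmpr1a, Eng, Smad5, Id3 and Id4 at 21D 0 mg/kg were lost. With limma-trend those of Bmp5, Bmpr2 and Pcsk6 at 7D 0 mg/kg and of Bmpr1a at 21D 0 mg/kg were lost, and with the replicate block those of Bmp5 and Bmpr2 at 7D 0 mg/kg and of Bmpr1a at 21D 0 mg/kg.

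Between 21D and 7D at 0 mg/kg 4 of the 54 pathway genes outside the list of 10 (7.41%) were called, where 5.35% of all genes were called. They were Inhbb, Nbl1, Bmper and Pcsk5. None of the receptors, SMAD genes or BMP targets was called by edgeR, with 3, 3 and 0 of them under an unadjusted p of 0.05.

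For each of the 10 genes, the genes whose levels were most alike were found by the Pearson correlation of log2 CPM over the 30 tendons. The tendons differ in group, depth and muscle content, so that these are descriptions. Bmp1 was most like Col5a2 (r = 0.967), Ptgfrn and Thbs3, of which Col5a2 encodes a chain of type V collagen. Mstn was most like Itgb1bp2 (r = 0.972), which encodes a muscle integrin-binding protein, and like Cdnf and Phkg1, the latter a muscle subunit of phosphorylase kinase. Inhba was most like Trps1 (r = 0.859), Grem1 like Atf2 (r = 0.876), Fst like Hs3st1 (r = 0.849) and Bmp4 like Plac9 (r = 0.821). Bmp6 was most like Atf5 (r = 0.799) and Bmp2 like Kif21a (r = 0.715). Chrdl1 (Ebf2, r = 0.681) and Fstl3 (Cd81, r = 0.669) had the loosest best match. Among the 10 genes themselves, Bmp4 and Bmp6 were most alike (r = 0.689), and Bmp1 and Fst ran opposite (r = -0.675).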

How the data were processed

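RNA of 30 rat plantaris tendons had been sequenced as 50-base single-end reads. Per the study's methods, the authors trimmed the reads with fastp, left out samples of low read quality, aligned with STAR to the rat genome rn6 and counted reads on exons of Ensembl release 95, and the deposited values are these raw counts per gene. Samples beyond those labelled were not analysed here. The deposited comparison columns hold the authors' own log2 fold changes, p-values and false discovery rates and were not used.

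Counts were fitted with edgeR 4.0.16 in R 4.3.3 (TMM scaling, quasi-likelihood test) over all 30 tendons in 1 model of 7 groups, after removal of 566 genes whose mean CPM, taken on total counts before TMM scaling, was under 3 in every group, which left 12558. P-values were adjusted by Benjamini-Hochberg over all of them. The script was tested on simulated data. Correlations were computed in R, and the exact permutation tests used SciPy 1.17.1 in Python 3.11.15.

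The genes and all lists were chosen with earlier results of these data known. Named were the 10 genes, the pathway genes of the lists in the 0 mg/kg comparisons, and the 3 genes most alike to each. Alternatives were other scalings (RLE, library size alone, muscle genes removed), no filter or at least 10 CPM, fits restricted to the groups in a comparison, a block for the replicate number, the muscle share as covariate, DESeq2 1.42.0, limma-trend (limma 3.58.1), a 1.5-fold limit and each tendon left out. The ratio of Mstn to muscle-list counts and the same alternatives for pathway genes were added after seeing the data. No tendons of a group were duplicates: the smallest chi-square per gene between 2 tendons was 29.9 over 52 pairs. Same-numbered tendons did not deviate together (median r 0.00685 over 76 pairs), so a replicate number was taken as a shared number only. Listed names were matched to the table regardless of letter case.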

Additional observations from a re-analysis of the deposited data

Results flagged for a closer look

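In 50 groups of 4 or 5 tendons, 7 had 1 tendon whose gap to the nearest of the others was a larger part of the range than Dixon's 95% limit allows. Chance gives about 1 in 20 groups. Grem1 had 2 of them, at 11.5 CPM in 21D 0 mg/kg replicate 2, where the others had 1.77 to 4.202 CPM, and at 2.69 CPM in 7D 0 mg/kg replicate 3, where the others had 1.19 to 1.62 CPM. These tendons had the lowest share of muscle-list counts of their groups, at 0.0701% and 0.183%, and its part in their level was not tested. In the same 21D 0 mg/kg tendon Bmp4 was low, at 15.5 CPM against 25.5 to 28.9 CPM. In the same 7D 0 mg/kg tendon Inhba was high, at 13.8 CPM against 4.88 to 7.07 CPM. Bmp6 was at 6.47 CPM in 21D 6 mg/kg replicate 5, against 3.11 to 3.98 CPM. Chrdl1 was at 71.7 CPM in 7D 2 mg/kg replicate 4, against 49.8 to 51.3 CPM. Fstl3 was at 8.08 CPM in 21D 6 mg/kg replicate 3, against 3.57 to 4.57 CPM.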

How the results depend on the processing

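Of 120 values of the 10 genes, 39 were called. None of these calls was lost with RLE scaling, without the muscle genes, without a filter, with DESeq2 or with the replicate block, whereas 10 were lost by library size alone, 10 with only the groups compared, 2 with limma-trend and 26 with the muscle share as covariate. In that last fit muscle share and surgery cannot be told apart, since control and repaired tendons did not overlap in that share. Leaving out 1 tendon lost 41 of 299 calls. Low counts limit Grem1 and, at 7D, Mstn. Of 73 called pathway values, 20 were lost by library size alone, 25 with the covariate, 15 with only the groups compared, 3 with the replicate block and 5 with limma-trend. Of the uncalled values of the 10 genes, 18 changed sign by library size alone and 15 with the covariate. The causes were not tested.

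The number of the 10 genes called moved as follows. By library size alone it was 3 at 7D 2 mg/kg against control, 0 for 21D against 7D at 0 mg/kg and 1 at 6 mg/kg. With the covariate it was 3, 0 and 0 at 7D 0, 2 and 6 mg/kg and 2 at 21D 0 mg/kg against control. It was then 0, 3 and 1 for 21D against 7D at 0, 2 and 6 mg/kg, 3 over the doses at 7D (Bmp4, Mstn and Grem1) and 1 for the dose effect between the times (Mstn). With only the groups compared it was 3 at 21D 0 mg/kg against control and 1, 3 and 1 for 21D against 7D. For 21D against 7D at 2 mg/kg it was 4 with DESeq2, 2 with limma-trend, and 1 each without muscle genes, without a filter and with at least 10 CPM, and at 0 mg/kg with at least 10 CPM it was 1. DESeq2 called 1 over the doses at 7D.

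Without 1 tendon the counts against control were 5 to 7, 3 to 5 and 4 to 6 at 7D 0, 2 and 6 mg/kg, and 5 to 6, 6 and 5 to 7 at 21D. For 21D against 7D they were 0 to 3, 0 to 1 and 0 to 2, over the doses at 7D 0 to 1, and over the doses at 21D and for the dose effect between the times 0.

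Replicate numbers were shared by the groups. With the replicate block 2 genes (Fst and Chrdl1) were called for 21D against 7D at 2 mg/kg, and no call of the 10 genes was lost. Of the tendons 6 correlated best with their own number.

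Among values called in either fit, directions turned with the covariate for Mstn against control at 7D 2 mg/kg (1.62) and 7D 6 mg/kg (1.82), for Inhba (-0.14) and Fst (0.35) at 7D 2 mg/kg, for Mstn between 21D and 7D at 2 mg/kg (-3.53) and 6 mg/kg (-3.26), and for Chrdl2 at 7D 0 mg/kg (0.092). By library size alone they turned for Bmp2 at 7D 6 mg/kg (0.011). At 7D 0 mg/kg they turned for Bmpr1a (0.091), Bmpr2 (0.13), Acvr1 (0.57), Acvr2a (0.23) and Rgma (0.11), and at 21D 0 mg/kg for Bmpr1a (0.17), Acvr2a (0.041), Rgma (0.13) and Twsg1 (0.092). Per muscle-list count, Mstn at 21D 0 mg/kg was at 0.053, which rested on 1 tendon, and without replicate 2 it was at -0.56.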

Other observations

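The summed levels of markers of other cell types are given here for the groups without the inhibitor. Adipocyte markers, 6 of 6 in the table, summed to 567 ± 280.1 CPM (SD, n = 3) in control, 1543 ± 433.6 CPM (n = 5) at 7D 0 mg/kg and 895.9 ± 107.6 CPM (n = 5) at 21D 0 mg/kg, with 4 and 0 of them called higher by edgeR (1 under an unadjusted p of 0.05 at 21D). Endothelial markers, 5 of 6 in the table, summed to 372 ± 214.8, 577.7 ± 78.0 and 416.4 ± 126.5 CPM in the same groups. Cartilage markers, 7 of 8 in the table, summed to 177.4 ± 135.5, 70.8 ± 42.0 and 69.9 ± 37.1 CPM. Col11a2 was the most abundant of them in the controls and Acan in the repaired tendons of these groups. Of 6 cartilage markers tested, 3 were called higher and 2 lower at 7D 0 mg/kg, and 2 higher and 2 lower at 21D 0 mg/kg. Markers of bone-forming cells, 3 of 6 in the table, summed to 13.3 ± 0.286, 4.57 ± 2.37 and 6.26 ± 1.88 CPM, with 1 called higher and 1 lower at each time. Of 9 tenocyte markers tested 6 were called at 7D 0 mg/kg, 1 higher and 5 lower, and of 9 macrophage markers 6 were called, all higher. In that comparison 71.4% of all genes were called (35.8% higher), and at 21D 0 mg/kg 65.9% (32.2% higher). Their part in the levels of the 10 genes was not tested.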
